A study of Mus musculus with 4 samples.

Results

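The genes described here encode the subunits of oxidative phosphorylation, taken from the deposited table by gene name alone: names beginning Nduf with a subunit letter and number, Sdha to Sdhd, Uqcr, Cox4 to Cox8 and Atp5, and the mt- genes of the mitochondrial DNA. The rule found 98 of the 39186 genes in the table, of which 85 are nuclear and 13 are mitochondrial. The rule itself uses no measured value, but the group of genes was picked with earlier results of these data known. The nuclear genes comprise 37 of complex I, 4 of complex II, 8 of complex III, 19 of complex IV and 17 of complex V, with Ndufa4 and Ndufa4l2 placed with complex IV. Among them, 82 are annotated as protein-coding and 3 (Cox6c2, Ndufb4c and Ndufs6b) as processed pseudogenes. A further 5 genes with -ps in the name were left out by the rule.

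RNA was sequenced from LSK cells (Lin- Sca-1+ c-Kit+), the sorted fraction of the fetal liver that contains the hematopoietic stem cells, in 2 *Pich*-KO and 2 *Pich*-WT samples. All samples were labelled with the strain C57BL/6. The labels name Pich KO and WT and give no other allele, agent, sex or embryonic stage. Per the study, the *Pich*-KO line carries a small deletion in exon 2 of *Pich*, an X-linked gene that encodes a DNA translocase of mitotic DNA bridges, in every cell of the embryo. Nothing in the labels ties the samples to separate embryos, so the p-values below measure only the spread between these samples.

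Oxidative phosphorylation makes ATP at the inner mitochondrial membrane. Complexes I and II pass electrons to ubiquinone, complex III passes them to cytochrome c, complex IV reduces oxygen, and complex V uses the proton gradient to make ATP. All complexes but complex II join subunits encoded in the nucleus to subunits encoded in the mitochondrial DNA, which is transcribed as long strands that are then cut into single messages. Fetal liver stem cells divide and are known to depend on mitochondrial respiration when they differentiate, whereas adult stem cells at rest rely more on glycolysis.

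Between 14703215 and 20933919 reads fell on genes in a sample. Values are normalized read counts, the reads of a gene divided by 1 size factor per sample, and levels of different genes are compared per kilobase of transcript. A gene was called higher or lower at an adjusted p under 0.05 by limma on log2(normalized count + 1). The test covered the 32428 genes whose mean was 1 or more, and fold changes are on that scale. All 98 subunit genes passed this filter. The Ercc6l gene, which encodes PICH, had 1142 and 1232 normalized counts in *Pich*-KO against 772 and 661 in *Pich*-WT. It was called higher in *Pich*-KO (log2 fold change 0.73, adjusted p = 0.00887), and the cause was not tested. Counts over the whole gene do not show a small deletion, so this gene does not check the labels. *Pich*-WT sample 2 stood apart from the other samples with 0 reads on Y-linked genes, against 1607 to 2848 in the others.

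The sort markers Kit and Ly6a, the gene of Sca-1, were present in every sample. Kit had 4447 and 2772 normalized counts in *Pich*-KO against 2328 and 2513 in *Pich*-WT, and Ly6a had 3586 and 2978 against 901 and 1061. Of the markers of other cell types, those of macrophages, erythroid cells, endothelium, hepatocytes and megakaryocytes lay mostly lower in *Pich*-KO. In the granulocyte, muscle and B, T and NK lists the groups overlapped for most markers. Among all genes tested, 9.6% were called lower and 7.58% higher, and among those averaging 100 or more 22.4% and 21.1%. All 12 macrophage markers were called lower in *Pich*-KO, with a summed level of 8037 to 9199 against 61357 to 63357. Of 10 erythroid markers 9 were lower, with sums of 31842 to 33795 against 138401 to 196668, and all 5 endothelial markers were lower, with sums of 1349 to 2102 against 17419 to 26052. Of 9 hepatocyte markers 6 were lower (sums 2642 to 3099 against 4440 to 4963), as were 2 of 4 megakaryocyte markers (479 to 542 against 2259 to 3617) and 2 of 5 markers of B, T and NK cells (211 to 660 against 502 to 628). Of 6 granulocyte markers 1 was higher, Mpo, which had 54647 and 90492 normalized counts against 10351 and 12533 and made up most of the list's sums (56665 and 102310 against 14699 and 17108). The other 5 summed to 2018 and 11818 against 4348 and 4575, with 4 of them lower in *Pich*-KO sample 1 than in both *Pich*-WT samples and all 5 higher in *Pich*-KO sample 2. Of 6 muscle markers 0 were called by limma (1 at an unadjusted p under 0.05, 1 called lower by edgeR and 0 by DESeq2), with sums of 116 to 130 against 155 to 276. Of 10 LSK and stem cell markers 1 was higher and 4 were lower, with sums of 18629 to 29850 against 25715 to 26757. No marker of these lists was at 0 in any sample. The part of this shift in the values below was not tested, and in bulk RNA fewer cells of a type and less RNA per cell cannot be told apart.

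Nuclear subunit genes were called higher in *Pich*-KO LSK cells far more often than lower, mostly by small amounts. Of the 85 genes, 26 were called higher, 1 was called lower and 58 were not called. Among all genes tested, 7.58% were called higher and 9.6% lower. Subunit genes are abundant, and among the 10544 genes that averaged 100 or more these shares were 21.1% and 22.4%, against 30.6% and 1.18% of the nuclear subunit genes. The median log2 fold change of the 85 genes was 0.32, against 0.02 for all genes and 0.04 for those averaging 100 or more. A positive log2 fold change was found for 77 of the 85, while 51.0% of all genes and 52.2% of those averaging 100 or more had one. Both *Pich*-KO samples lay above both *Pich*-WT samples for 64 nuclear genes and below for 5, while 28.9% of all genes lay above in this way and 27.2% below. For genes averaging 100 or more these shares were 41.7% and 38.3%. Of the 26 genes called higher, 24 had a log2 fold change of at most 1.

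Summed over the 85 genes, the normalized counts were 293274 and 314576 in *Pich*-KO against 260286 and 243404 in *Pich*-WT, a 1.21-fold difference with no overlap between groups. The exact two-sided permutation test over samples gave p = 0.333, the smallest that 2 samples against 2 allow. Nuclear subunit genes took 1.77% and 1.88% of all reads on genes in *Pich*-KO against 1.59% and 1.56% in *Pich*-WT. Without any one sample limma called 0 of all 32428 genes, so its calls say nothing of single genes at that size. The median log2 fold change of the nuclear subunit genes then stayed between 0.22 and 0.40. The number of calls also rests on limma's variance trend, without which 0 genes of the whole table were called. At an unadjusted p under 0.05, 9 of the 85 nuclear subunit genes were then higher and 1 lower. Of all 32428 genes 3343 were higher at that p, a share close to that of the nuclear subunit genes, and 4034 were lower. On the recovered reads, edgeR called 37 nuclear subunit genes higher and DESeq2 called 26, of which 26 and 24 were among the 26 called by limma. Of all genes tested, edgeR called 18.6% of 16608 higher and DESeq2 2623 of 39186.

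**Figure D1:**
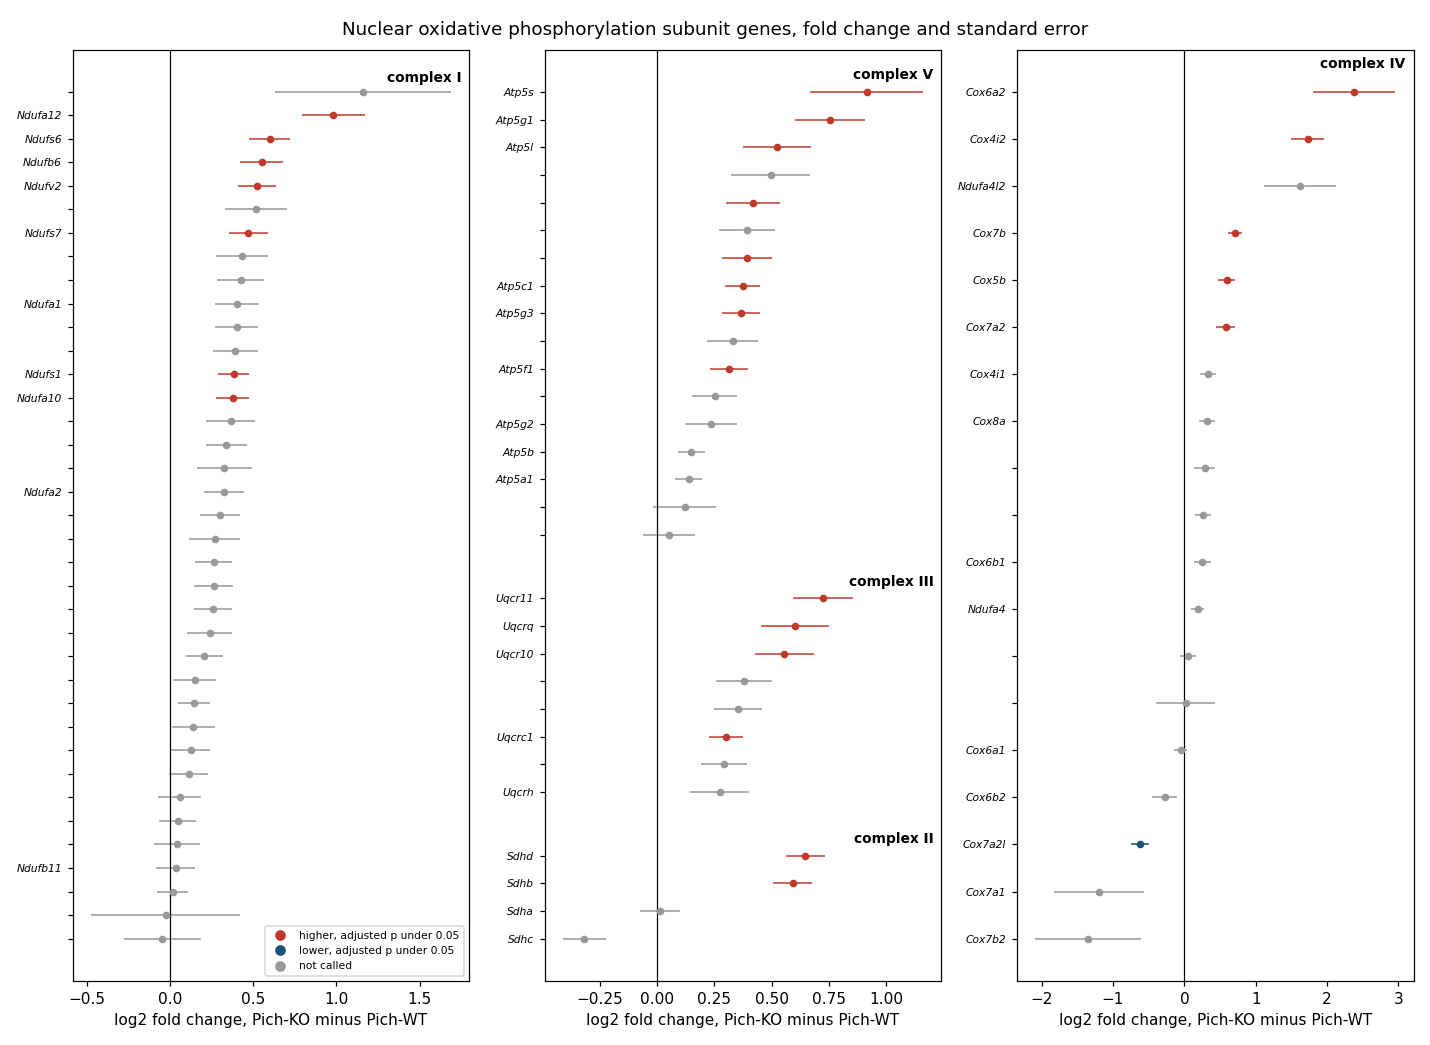
Log2 fold change (*Pich*-KO minus *Pich*-WT, horizontal axis) of each nuclear subunit gene by complex, with its standard error from limma as a bar; the scale differs between panels and only genes named in the text are labelled. Genes of complexes III and V all lie above 0, Cox7a2l is the 1 gene called lower, and Cox6a2 and Cox4i2 lie farthest to the right.

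Complex I, the NADH dehydrogenase, had 7 of 37 nuclear genes called higher and 0 called lower, with a median log2 fold change of 0.30. The share called higher, 18.9%, lay above the 7.58% of all genes and just below the 21.1% of genes averaging 100 or more, of which 22.4% were called lower. At an unadjusted p under 0.05 by limma 18 were higher and 0 lower, against 4427 and 4867 of the 32428 genes tested. EdgeR and DESeq2 called 11 and 8 higher and 0 lower. Of the genes tested, edgeR called 18.6% higher and DESeq2 2623 of 39186. Ndufa12, an accessory subunit of the peripheral arm (chromosome 10, 94198720 to 94221443, plus strand), had 1659 and 1140 normalized counts in *Pich*-KO against 729 and 664 in *Pich*-WT. It was the complex I gene with the largest called change (log2 fold change 0.98, SE 0.19, adjusted p = 0.00869), and *Pich*-KO sample 1 was the higher of its group. Ndufs6, a subunit of the same arm, had 1609 and 1863 against 1130 and 1154 (0.60, adjusted p = 0.0125). Ndufb6, of the membrane arm, had 1115 and 1220 against 815 and 777 (0.55, adjusted p = 0.0216).

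The other called genes of complex I were Ndufs7, Ndufs1, Ndufa10 and, outside the rule for named genes, Ndufv2, which had log2 fold changes of 0.38 to 0.52. Ndufs1, Ndufs7 and Ndufv2 encode iron-sulfur proteins of the electron path. Ndufs1 had 3905 and 3811 normalized counts in *Pich*-KO against 3071 and 2854 in *Pich*-WT (adjusted p = 0.027), and Ndufs7 had 2990 and 3586 against 2438 and 2292. Ndufa2 had the highest level per kilobase of complex I, 3306 as the mean of all samples, and a log2 fold change of 0.33 that was not called (adjusted p = 0.113).

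The groups overlapped for 10 nuclear genes of complex I. Both *Pich*-KO samples lay above both *Pich*-WT samples for 27 (73.0%), against 28.9% of all genes and 41.7% of those averaging 100 or more. Of the X-linked genes, Ndufb11 had 1525 and 1718 normalized counts in *Pich*-KO against 1631 and 1532 in *Pich*-WT, with overlapping groups and a log2 fold change of 0.03 that turned to -0.03 under CPM scaling, which divides by all reads of the sample. Ndufa1 had 1091 and 1141 against 889 and 801, with no overlap and an adjusted p of 0.0743.

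Complex II, the succinate dehydrogenase, is encoded by nuclear genes alone, and of its 4 genes 2 were called higher and 2 were not called. Among all genes 7.58% were called higher, and among those averaging 100 or more 21.1%. Sdhb encodes the iron-sulfur subunit, Sdhd and Sdhc the membrane anchors and Sdha the flavoprotein that oxidizes succinate. Sdha and Sdhc were not named by the rule for genes in the text and are given to complete the complex. The RefSeq sequences around the start of Sdhb and Sdhd, the called pair, are shown on GRCm38.p6, from 250 bases before to 50 after the start, with that of Cox7a2l, the 1 gene called lower. Capitals mark the letters of motifs counted further on, an ETS word in Sdhb and, in Sdhd, an NRF1 word and an ETS word read on the other strand.
Sdhb, chr4:140961021-140961320, plus strand: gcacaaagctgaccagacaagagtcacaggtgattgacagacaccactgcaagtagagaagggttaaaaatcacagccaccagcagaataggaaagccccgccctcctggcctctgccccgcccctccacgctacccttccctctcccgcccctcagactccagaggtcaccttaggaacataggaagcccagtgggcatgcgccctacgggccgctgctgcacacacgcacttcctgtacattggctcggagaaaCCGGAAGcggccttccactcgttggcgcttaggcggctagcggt
Sdhd, chr9:50603800-50604099, minus strand: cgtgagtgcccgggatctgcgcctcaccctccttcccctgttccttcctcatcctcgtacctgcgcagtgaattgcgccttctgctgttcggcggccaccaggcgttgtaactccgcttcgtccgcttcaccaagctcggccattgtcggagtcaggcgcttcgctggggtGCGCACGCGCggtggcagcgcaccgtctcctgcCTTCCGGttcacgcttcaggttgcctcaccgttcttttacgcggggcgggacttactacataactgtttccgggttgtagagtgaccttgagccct
Cox7a2l, chr17:83514284-83514583, minus strand: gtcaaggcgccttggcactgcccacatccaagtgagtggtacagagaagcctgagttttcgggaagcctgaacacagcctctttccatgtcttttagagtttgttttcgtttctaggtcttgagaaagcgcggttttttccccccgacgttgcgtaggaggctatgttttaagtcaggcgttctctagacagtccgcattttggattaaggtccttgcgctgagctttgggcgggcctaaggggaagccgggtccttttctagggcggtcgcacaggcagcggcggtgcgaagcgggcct

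Sdhb (chromosome 4, 140961203 to 140979193, plus strand) had 6256 and 6273 normalized counts in *Pich*-KO against 4311 and 4007 in *Pich*-WT. Its log2 fold change was 0.59 with an SE of 0.09 and an adjusted p of 0.00244. Sdhd (chromosome 9, 50596357 to 50603812, minus strand) had 6290 and 6830 against 4203 and 4165, a log2 fold change of 0.65 (SE 0.09, adjusted p = 0.00164). Both genes rose, and in each the gap between the groups was larger than the distance between the samples of a group.

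Sdha had 10449 and 9176 normalized counts in *Pich*-KO against 9991 and 9421 in *Pich*-WT, with overlapping groups (log2 fold change 0.01, SE 0.09, and -0.05 under CPM scaling). Sdhc (chromosome 1, 171127165 to 171150603, minus strand) had 2511 and 2493 against 3178 and 3064, both *Pich*-KO samples below both *Pich*-WT samples. At a log2 fold change of -0.32 and an adjusted p of 0.0568 it was not called, while edgeR gave an adjusted p of 0.0353 and the other settings 0.0227 to 0.432. Per kilobase, the ratio of Sdhb to Sdhc was 3.62 and 3.65 in *Pich*-KO against 1.97 and 1.90 in *Pich*-WT. That is a 1.88-fold difference within the complex, at the smallest exact permutation p of 0.333, and a ratio shows unequal change without saying which gene moved.

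Complex III, the cytochrome bc1 complex, had 4 of 8 nuclear genes called higher and 0 lower by limma, 7 and 0 at an unadjusted p under 0.05, 7 and 0 by edgeR, and 3 and 0 by DESeq2. Limma called 7.58% of all genes higher and 21.1% of those averaging 100 or more. At an unadjusted p under 0.05, 4427 and 4867 of the 32428 genes tested were higher and lower. Of the genes tested, edgeR called 18.6% higher and DESeq2 2623 of 39186. All 8 genes of complex III lay higher in both *Pich*-KO samples than in both *Pich*-WT samples, with log2 fold changes of 0.27 to 0.72. Both *Pich*-KO samples lay above in this way for 28.9% of all genes and 41.7% of those averaging 100 or more. Uqcr11, a small subunit of the complex, had 2518 and 3154 normalized counts in *Pich*-KO against 1749 and 1662 in *Pich*-WT (log2 fold change 0.72, SE 0.13, adjusted p = 0.0068). Uqcrq, which binds ubiquinone, had 2749 and 3672 against 2202 and 1986 (0.60, adjusted p = 0.0261). Uqcr10, the highest of the complex per kilobase at 4421, had 2725 and 3439 against 2048 and 2116 (0.56, adjusted p = 0.021). In these 3 small subunits *Pich*-KO sample 2 exceeded sample 1. Uqcrc1, a core protein of the matrix side, had 12712 and 12719 against 10738 and 9935, a smaller change with nearly equal *Pich*-KO samples (0.30, adjusted p = 0.0263). The hinge protein gene Uqcrh had the smallest log2 fold change, 0.27, and was not called.

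Complex IV, cytochrome c oxidase, had 5 of 19 nuclear genes called higher (26.3%) and 1 called lower (5.26%). Among genes averaging 100 or more these shares were 21.1% and 22.4%, and among all genes 7.58% and 9.6%. Complex IV held the 2 largest called increases, both in genes for forms of a subunit that are used in certain tissues, and the only called decrease. Cox4i2, a form of subunit 4 known from lung and from cells short of oxygen (chromosome 2, 152754173 to 152765037, plus strand), had 412 and 308 normalized counts in *Pich*-KO against 96.9 and 118 in *Pich*-WT. Its log2 fold change was 1.73 with an SE of 0.23 and an adjusted p of 0.00171. The common form Cox4i1 had 7246 and 8989 against 6705 and 6189 and was not called (0.33, adjusted p = 0.0943). Per kilobase, Cox4i2 stood at 0.112 and 0.0674 of Cox4i1 in *Pich*-KO against 0.0284 and 0.0375 in *Pich*-WT, so the common form remained the more abundant by far in every sample.

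Cox6a2, the form of subunit 6a of heart and skeletal muscle (chromosome 7, 128205435 to 128206387, minus strand), had 158 and 153 normalized counts in *Pich*-KO against 59.4 and 14 in *Pich*-WT. The log2 fold change of 2.38 had an SE of 0.58 and an adjusted p of 0.0253, and the *Pich*-WT samples differed more from each other than the *Pich*-KO samples did. The call of Cox6a2 was not kept in every setting on all samples, with an adjusted p of up to 0.0906 even where the trend was kept or not used by the tool. Its common partner Cox6a1 had 4823 and 5110 against 5436 and 4889, with overlapping groups (-0.05). The 6 muscle markers, none of them called by limma, had sums of 130 and 116 in *Pich*-KO against 276 and 155 in *Pich*-WT. Ndufa4l2, a gene that responds to low oxygen, had 24.0 and 50.02 against 9.38 and 12. Its log2 fold change of 1.62 was not called (adjusted p = 0.0655), and that of Ndufa4 was 0.19.

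The other 3 genes of complex IV called higher are each the only or the common form in most tissues. Cox7b, on the X chromosome (106015700 to 106022450, plus strand), had 3338 and 3663 normalized counts in *Pich*-KO against 2193 and 2084 in *Pich*-WT (log2 fold change 0.71, SE 0.10, adjusted p = 0.00237). Cox5b had 3184 and 3954 against 2373 and 2337 (0.59, adjusted p = 0.0126). Cox7a2, a form of subunit 7a made in most tissues, had 2478 and 3084 against 1929 and 1782 (0.58, adjusted p = 0.0188).

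Cox7a2l encodes a relative of subunit 7a that ties complex III to complex IV in supercomplexes, and C57BL/6 mice are known to carry a short allele of it. The gene (chromosome 17, 83501919 to 83514333, minus strand) had 1033 and 879 normalized counts in *Pich*-KO against 1455 and 1485 in *Pich*-WT. It fell by 0.63 on the log2 scale (SE 0.13, adjusted p = 0.0133) and was the 1 nuclear subunit gene called lower. Per kilobase, Cox7a2l stood at 0.343 and 0.234 of Cox7a2 in *Pich*-KO against 0.621 and 0.686 in *Pich*-WT, with no overlap (exact permutation p = 0.333, the smallest possible).

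Among the remaining genes of complex IV, Cox8a had the highest level per kilobase, 9346, with 5049 and 6288 normalized counts in *Pich*-KO against 4501 and 4535 in *Pich*-WT (log2 fold change 0.32, adjusted p = 0.105). Cox6b1 and its testis form Cox6b2 had log2 fold changes of 0.25 and -0.27, neither called. The muscle form Cox7a1 and the testis form Cox7b2 were near the detection limit, with at most 15 and 6.25 normalized counts in any sample. They were lower in both *Pich*-KO samples and not called.

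**Figure D2:**
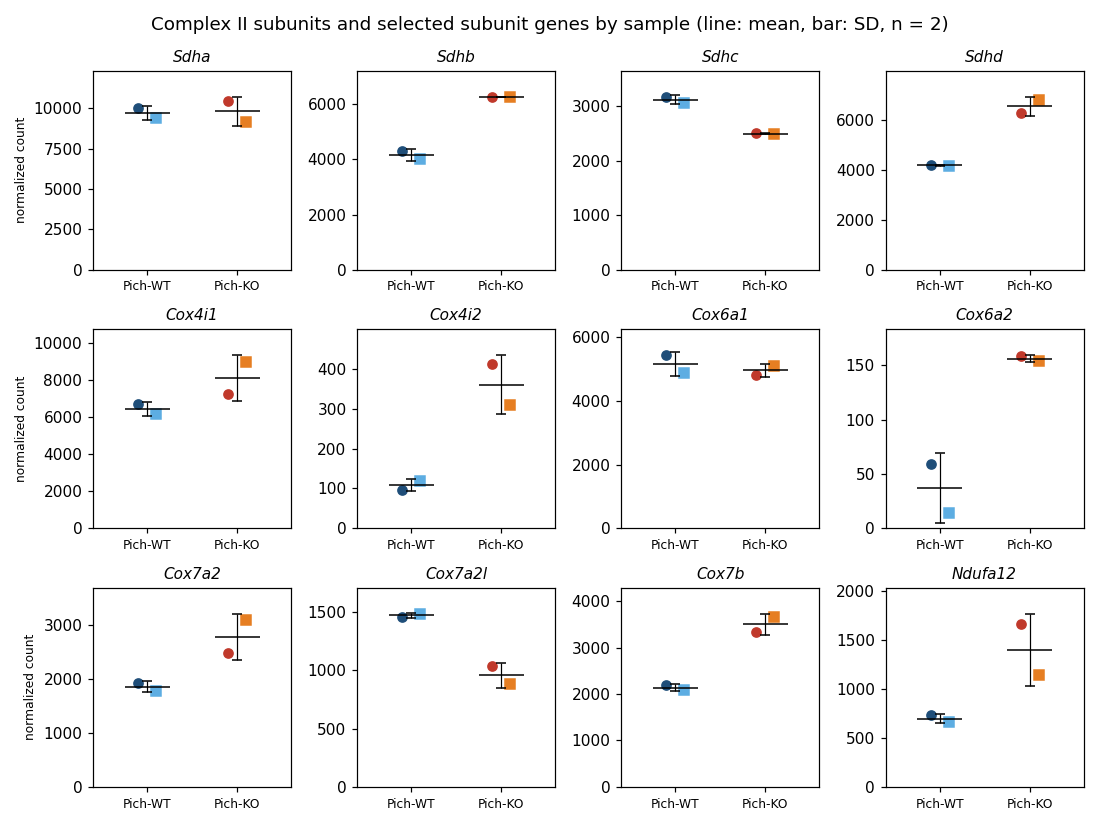
Normalized counts (vertical axis, from 0) of the 4 complex II genes and 8 selected subunit genes in each sample, with the mean as a line and the SD of 2 samples as a bar. The groups are apart in every panel except Sdha and Cox6a1, and *Pich*-KO lies lower for Sdhc and Cox7a2l.

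Complex V, the ATP synthase, had 8 of 17 nuclear genes called higher (47.1%) and 0 lower by limma, and all 17 log2 fold changes were positive. Of all genes limma called 7.58% higher, and of those averaging 100 or more 21.1%. At an unadjusted p under 0.05 by limma, 14 were higher and 0 lower, against 4427 and 4867 of the 32428 genes tested. EdgeR and DESeq2 called 11 and 8 higher and 0 lower. Of the genes tested, edgeR called 18.6% higher and DESeq2 2623 of 39186. The genes of the catalytic head were the most abundant per kilobase and were not called. Atp5b, which encodes the beta subunit and had the highest level per kilobase of all nuclear subunit genes at 10383, had 46676 and 45825 normalized counts in *Pich*-KO against 43518 and 39947 in *Pich*-WT (log2 fold change 0.15, SE 0.06, adjusted p = 0.144). The alpha subunit gene Atp5a1, chosen after its values were seen, had a log2 fold change of 0.14 and was not called either. Atp5c1, the gene of the central stalk, had 7954 and 8225 against 6329 and 6155 and was called higher (0.37, SE 0.08, adjusted p = 0.0124).

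Atp5g1, Atp5g2 and Atp5g3 encode the same mature protein, the c subunit of the rotor ring, and differ in their import sequences. Atp5g1 had 4149 and 5827 normalized counts in *Pich*-KO against 3003 and 2824 in *Pich*-WT (log2 fold change 0.76, SE 0.15, adjusted p = 0.0116). Atp5g3 had 7995 and 8765 against 6573 and 6422 (0.37, adjusted p = 0.0185), and Atp5g2 had 1952 and 2179 against 1706 and 1801 and was not called (0.23). Atp5g1 made up 29.4% and 34.7% of the counts of these 3 genes in *Pich*-KO against 26.6% and 25.6% in *Pich*-WT, so the groups did not overlap in this share.

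The largest called change of complex V was that of Atp5s, the gene of coupling factor B, which is not a core part of the enzyme. It had 202 and 288 normalized counts in *Pich*-KO against 116 and 140 in *Pich*-WT (log2 fold change 0.92, SE 0.25, adjusted p = 0.0399). Atp5l of the membrane part had 1746 and 2298 against 1440 and 1347 (0.52, adjusted p = 0.0469), and Atp5f1 of the side stalk had 8429 and 8327 against 7115 and 6387 (0.31, adjusted p = 0.0384).

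The promoters of the nuclear genes were read for words of factors known to act on respiratory genes. Of the 85 genes, 65 were matched by symbol in the RefSeq table, and both strands were searched from 250 bases before to 50 after each start. The NRF1 word, GCGCA and GCGC with any 1 base between, was found in 17 of 65 (26.2%), against 5.19% of all genes with a promoter and 12.7% of those averaging 100 or more. The ETS word CCGGAAG was found in 16 (24.6%), against 9.93% and 22.3%, and the YY1 word AAGATGGCG in 7 (10.8%), against 1.64% and 4.07%. The ETS and YY1 words share 3 letters and can overlap. At least 1 of the words was present in 12 of the 20 matched genes called higher (60%) and in 22 of the 44 matched genes not called (50%). The share was 52.3% of the 65 matched nuclear genes, 15.1% of all genes with a promoter and 34.5% of those averaging 100 or more. A link between words and calls was not tested. A word match is a description of the letters and not a bound site.

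In the mitochondrial genes the *Pich*-KO samples stood far apart from each other. All 13 had a positive log2 fold change, with a median of 0.60, and 3 were called higher: mt-Co2, mt-Co3 and mt-Atp6. The share called higher, 23.1%, lay near the 21.1% of genes averaging 100 or more, against 7.58% of all genes. In 4 of 13 (30.8%) both *Pich*-KO samples lay above both *Pich*-WT samples, against 28.9% of all genes and 41.7% of those averaging 100 or more. In all 13 genes sample 2 exceeded sample 1, by a median of 2.07 times. Among all genes 50.4% were higher in *Pich*-KO sample 2, as were 47.8% of those averaging 100 or more, and among the nuclear subunit genes 81.2% were, by a median of 1.14 times. Cell type markers also differed between these 2 samples. All 6 granulocyte markers were higher in *Pich*-KO sample 2, by a median of 4.75 times, and 0 of 10 LSK and stem cell markers were, at a median ratio of 0.625. The part of this difference in the mitochondrial values was not tested. The *Pich*-WT samples ran the other way for the 2 genomes, with sample 1 higher than sample 2 in 71 of 85 nuclear genes and in 1 of 13 mitochondrial genes, against 52.1% of all genes and 65.1% of those averaging 100 or more.

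For the abundant mitochondrial messages the groups overlapped. Of the 6 genes averaging 1000 or more, limma, edgeR and DESeq2 each called 0, with 0, 0 and 1 at an unadjusted p under 0.05. Limma with same-numbered samples set as pairs, which the labels do not name, called mt-Co1 and mt-Nd5 higher. For mt-Co1, which encodes the catalytic subunit of complex IV, the values were 10590 and 21969 in *Pich*-KO against 8987 and 11294 in *Pich*-WT (log2 fold change 0.60, SE 0.29, adjusted p = 0.223). For mt-Cytb, the mitochondrial gene of complex III, they were 7676 and 18952 against 10130 and 11796 (0.14). Here *Pich*-KO sample 1 was the lowest of the 4 samples and *Pich*-KO sample 2 the highest.

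The complex I genes had the same order of the *Pich*-KO samples. For mt-Nd1 the normalized counts were 5463 and 13002 against 7445 and 8899 (log2 fold change 0.05, and -0.01 under CPM scaling). For mt-Nd2 they were 2205 and 4591 against 2326 and 2840 (0.31), and for mt-Nd4 1639 and 3279 against 1933 and 2196 (0.17). In each of these *Pich*-KO sample 1 lay below both *Pich*-WT samples. The values of mt-Nd5 were 4124 and 7188 against 3571 and 4522 (0.44, adjusted p = 0.275). The gene mt-Nd6, the only one of the 13 on the other strand, had 838 and 1177 against 841 and 976 (0.13). It overlaps the end of mt-Nd5, and whether counting used the strand is not given in the sources used here.

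Summed over the 13 genes, the normalized counts were 32987 and 71072 in *Pich*-KO against 35416 and 42754 in *Pich*-WT. The log2 ratio of 0.32 was within the spread of the *Pich*-KO samples (exact permutation p = 1) and was -0.24 without *Pich*-KO sample 2. The ratio of the mitochondrial to the nuclear sum was 0.112 and 0.226 in *Pich*-KO against 0.136 and 0.176 in *Pich*-WT, so *Pich*-KO held both the lowest and the highest value. Its log2 ratio of 0.04 (exact permutation p = 1) became -0.46 without *Pich*-KO sample 2, 0.55 without *Pich*-KO sample 1 and -0.14 without *Pich*-WT sample 1.

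**Figure D3:**
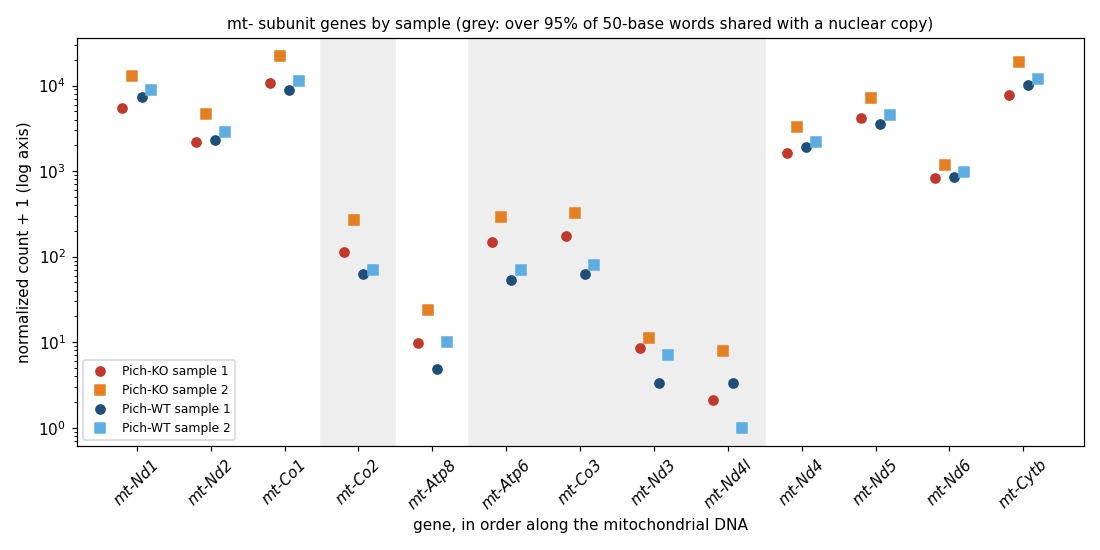
Normalized count plus 1 (log axis) of each mitochondrial subunit gene in each sample, in order along the mitochondrial DNA; grey marks genes with over 95% of their 50-base words also in a nuclear transcript. *Pich*-KO sample 2 is the highest sample for every gene, and the genes in grey lie far below the others apart from mt-Atp8.

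The 3 called mitochondrial genes belong to a stretch that the nuclear genome repeats. On chromosome 1 of GRCm38, minus strand, lies a copy of a piece of the mitochondrial DNA that the annotation lists as separate genes. Over the aligned bases, Gm28661 matches mt-Co2, Gm10925 matches mt-Atp6, Gm28437 matches mt-Co3, Gm28438 matches mt-Nd3, Gm10222 matches mt-Nd4l and Gm28439 matches part of mt-Nd4, each at 100% identity. Of the 50-base words of mt-Co2, 100% also occur in an annotated transcript outside the mitochondrial DNA, as do 99.5% for mt-Atp6, 99.9% for mt-Co3, 98.0% for mt-Nd3 and 98.8% for mt-Nd4l. The share was 62.2% for mt-Nd4 and 51.1% for mt-Co1, between 7.61% and 8.19% for mt-Nd5 and mt-Nd2, and 0% for mt-Nd1, mt-Cytb, mt-Nd6 and mt-Atp8. In mt-Co1 the aligned piece of 483 bases differed from its copy Gm29216 by 1 substitution, A1066T, with the mitochondrial base first and positions counted from the start of mt-Co1. The first 60 bases of mt-Co2 and mt-Co3 are shown with those of their copies, read from GRCm38, because reads from either place cannot be told apart.
mt-Co2, chrM:7013-7072, plus strand: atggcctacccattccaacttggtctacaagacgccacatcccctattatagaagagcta
Gm28661, chr1:24615506-24615565, minus strand: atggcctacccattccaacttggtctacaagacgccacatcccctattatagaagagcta
mt-Co3, chrM:8607-8666, plus strand: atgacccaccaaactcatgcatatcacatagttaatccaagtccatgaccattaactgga
Gm28437, chr1:24613912-24613971, minus strand: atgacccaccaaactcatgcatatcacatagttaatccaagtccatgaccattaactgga

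The 5 genes with nearly all words shared were low beside the others, with means of 8.63 to 204 per kilobase, as was mt-Atp8 at 54.4. The other 7 mitochondrial genes had 1642 to 10611. For mt-Co3 the normalized counts were 176 and 324 in *Pich*-KO against 61.0 and 79 in *Pich*-WT (log2 fold change 1.77, SE 0.33, adjusted p = 0.00777). For mt-Atp6 they were 147 and 288 against 52.4 and 69 (1.76, adjusted p = 0.0107), and for mt-Co2 111 and 264 against 61.0 and 68 (1.40, adjusted p = 0.0462). The call of mt-Co2 was lost with a pseudocount of 0.1, with no filter on the mean and under both CPM scalings, at adjusted p-values of 0.0698 to 0.119. All 3 lay higher in both *Pich*-KO samples. How the authors' counting treated reads that match several places is not given, so these 3 calls are uncertain as measures of the mitochondrial message.

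The copies of the 3 called genes had values near those of the genes. Gm28437, the copy of mt-Co3, had 213 and 344 normalized counts in *Pich*-KO against 46.9 and 55 in *Pich*-WT, and Gm10925, the copy of mt-Atp6, had 148 and 297 against 53.1 and 81. Gm28661, the copy of mt-Co2, had 81.8 and 152 against 60.2 and 84. With gene and copy added, mt-Co3 stood at 388 and 668 against 108 and 134, mt-Atp6 at 296 and 584 against 106 and 150, and mt-Co2 at 193 and 416 against 121 and 152. The groups were apart in each sum, and *Pich*-KO sample 2 was the highest sample.

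The genes mt-Nd3 and mt-Nd4l had at most 10.2 and 6.82 normalized counts in any sample, and nearly all counts of their sequences stood on the copies. Gm28438, the copy of mt-Nd3, had 157 and 181 in *Pich*-KO against 97.7 and 112 in *Pich*-WT, and gene and copy together had 165 and 191 against 100.03 and 118. Gm10222, the copy of mt-Nd4l, had 55.6 and 58.0 against 10.9 and 16, with sums of 56.7 and 64.8 against 13.3 and 16. For mt-Nd4 the order was the other way, since Gm28439, which matches part of it, had 7.63 and 17.1 against 15.6 and 5. The gene mt-Atp8, which shares no word with an annotated nuclear transcript, had 8.73 and 22.7 in *Pich*-KO against 3.91 and 9 in *Pich*-WT. On the mitochondrial DNA mt-Atp8 follows mt-Co2 and overlaps the start of mt-Atp6. Unannotated bases between the copies of mt-Co2 and mt-Atp6 on chromosome 1, 24614651 to 24614885, were not searched. By limma mt-Nd3, mt-Nd4l, mt-Nd4 and mt-Atp8 were not called.

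**Figure D4:**
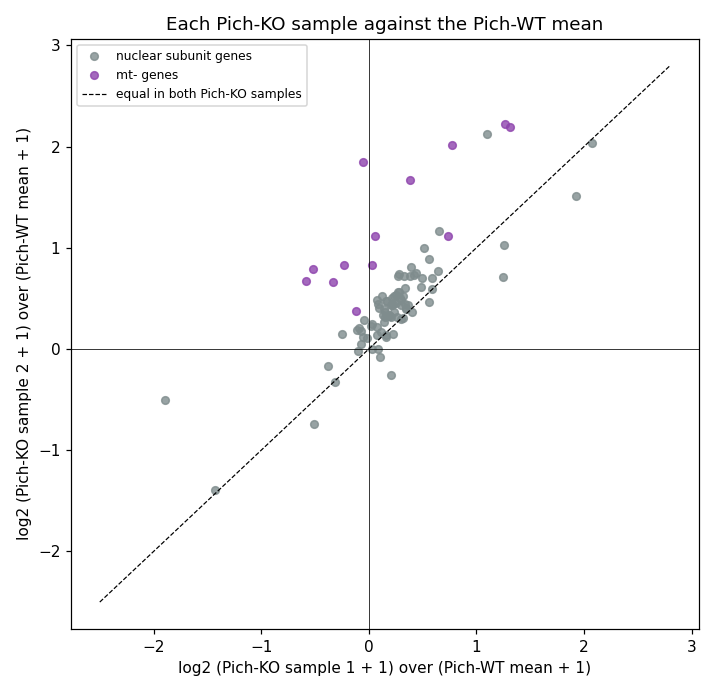
Log2 ratio of each *Pich*-KO sample to the *Pich*-WT mean (normalized counts plus 1), sample 1 on the horizontal and sample 2 on the vertical axis, for 85 nuclear and 13 mitochondrial genes. Nuclear genes gather above 0 on both axes near the dashed line of equality, and all mitochondrial genes lie above that line.

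Assembly factors build the complexes and are not part of the finished enzymes. Of 51 assembly factors tested, 10 were called higher (19.6%, against 7.58% of all genes and 21.1% of those averaging 100 or more) and 0 lower, with a median log2 fold change of 0.33. At an unadjusted p under 0.05, and by edgeR and DESeq2, 0 of them were lower as well. For complex I, 3 of 16 were higher: Ecsit, which also acts in innate signalling (0.93), Ndufaf6 (0.93) and Ndufaf4 (0.87). For complex III, 3 of 6 were higher, Uqcc2 (0.63), Uqcc1 (0.57) and Bcs1l (0.55), the last a chaperone that inserts the iron-sulfur protein. For complex IV, 4 of 21 were higher, among them Cox15, an enzyme of heme a synthesis, with 1432 and 1369 normalized counts in *Pich*-KO against 405 and 468 in *Pich*-WT (1.68, SE 0.14, adjusted p = 0.00021). Taco1, a translational activator of mt-Co1, had 269 and 323 against 116 and 170 (1.07, adjusted p = 0.0205). Of the 4 factors of complex II and the 4 of complex V limma called 0 and 0, with 1 and 3 higher at an unadjusted p under 0.05. For complex II edgeR and DESeq2 also called 0, and for complex V they called 2 and 0.

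The electron carrier cytochrome c and a pair of subunits that the name rule missed were all called higher. Cycs, the gene of cytochrome c, had 5200 and 6708 normalized counts in *Pich*-KO against 2927 and 2349 in *Pich*-WT (log2 fold change 1.17, SE 0.15, adjusted p = 0.00136). Ndufab1, the acyl carrier protein of complex I, had 2139 and 2416 against 1363 and 1415 (0.71). Cyc1, the cytochrome c1 of complex III, had 7355 and 8108 against 5306 and 4847 (0.61). In each of the 3 genes both *Pich*-KO samples lay above both *Pich*-WT samples, as in 28.9% of all genes and 41.7% of those averaging 100 or more. The shares called higher were 7.58% and 21.1%.

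Genes that keep and read the mitochondrial DNA showed 15 of 32 called higher (46.9%) and 1 lower, with a median log2 fold change of 0.50. Limma called higher 7.58% of all genes and 21.1% of those averaging 100 or more. Mterf1a, a factor that binds the mitochondrial ribosomal RNA genes, had 48.0 and 77.3 normalized counts in *Pich*-KO against 14.8 and 19 in *Pich*-WT (1.80, adjusted p = 0.018). Fastkd1, an RNA-binding protein of mitochondria, had a log2 fold change of 1.62 (adjusted p = 0.00102), and Pnpt1, a mitochondrial RNA exonuclease that interferon also induces, had 2730 and 2524 against 930 and 1023 (1.43, adjusted p = 0.000184). The smallest called increases were those of the helicase Twnk (0.50) and the RNA polymerase Polrmt (0.50). Tk2, a mitochondrial thymidine kinase, had 328 and 275 against 605 and 714 and was the 1 gene lower (-1.13, adjusted p = 0.00352). Tfam, which packs mitochondrial DNA, had 1330 and 1379 against 1061 and 1083, a log2 fold change of 0.34 that was not called (adjusted p = 0.0954).

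Of 11 regulators of respiratory genes, 2 were called higher and 0 lower by limma, edgeR and DESeq2, with 1 lower at an unadjusted p under 0.05. The 18.2% called higher by limma lay between the 7.58% of all genes and the 21.1% of those averaging 100 or more, and edgeR called 18.6% of the genes it tested higher. Their median log2 fold change was 0.02. Gabpa, the ETS factor also called NRF2 alpha, had 1168 and 1200 normalized counts in *Pich*-KO against 514 and 523 in *Pich*-WT (1.19, SE 0.13, adjusted p = 0.000669). Pprc1, a coactivator of the PGC-1 family, had 3191 and 3333 against 2300 and 2143 (0.55, adjusted p = 0.00668). Nrf1 had 1856 and 1912 against 1801 and 1560 and was not called (0.17). Ppargc1a was low, at 12.0 and 27.3 against 43.0 and 59, with no overlap and an adjusted p of 0.0832, and Ppargc1b and Esrra had overlapping groups with log2 fold changes of -0.05 and 0.09.

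Other mitochondrial lists were compared by their counts, beside the 7.58% of all genes and the 21.1% of those averaging 100 or more that limma called higher. Of 17 genes of the tricarboxylic acid cycle, 8 were called higher by limma (47.1%), 11 by edgeR and 7 by DESeq2, with a median log2 fold change of 0.33. Of the genes tested, edgeR called 18.6% higher and DESeq2 2623 of 39186. Idh3a had the largest called change, with 4950 and 5020 normalized counts in *Pich*-KO against 3353 and 3114 in *Pich*-WT (0.63), and the citrate synthase gene Cs had 8008 and 8298 against 6049 and 5847 (0.45). Of 13 genes of the outer membrane, import and chaperones, 12 were higher (92.3%), with a median of 0.69. The chaperonin gene Hspd1 had 24903 and 27893 against 11447 and 10903 (1.24, adjusted p = 6.4e-05), and its partner Hspe1 and the matrix chaperone Hspa9 had log2 fold changes of 1.41 and 1.07. Of 77 mitochondrial ribosomal protein genes 37 were higher (48.1%) and 1 had a negative log2 fold change (median 0.45), and of 98 cytosolic ribosomal protein genes 61 were higher (62.2%) and 2 lower (median 0.49). The medians of the ribosomal lists lay above that of the nuclear subunit genes, 0.32.

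**Figure D5:**
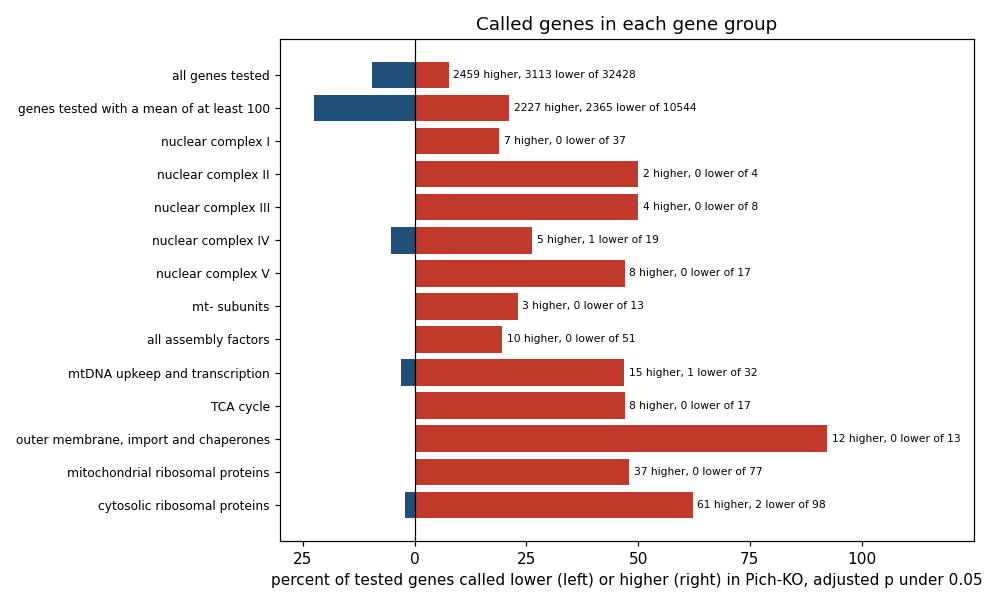
Percent of tested genes called higher (right of 0) or lower (left of 0) in *Pich*-KO for each gene group, with counts beside the bars. Complexes II, III and V and the ribosomal, import and mitochondrial DNA lists lie well above the shares of all genes tested and of genes averaging 100 or more, whereas complex I lies near the latter.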

How the data were processed

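RNA of fetal liver LSK cells was extracted with Trizol and made into TruSeq libraries, per the labels. The values deposited by the authors are a signal per gene and sample, the reads counted on the gene divided by 1 size factor per sample. Multiplying back gave whole reads for 100% of the values, within 0.01 read. The submitters' processing notes name Bowtie 0.12.2, mm8 and mm9. The gene coordinates of the table, however, are those of GRCm38: start and end are identical to GENCODE M21 for 97.8% of the 39163 genes it holds and for 92 of the 98 subunit genes. The counter and the annotation are not given in the sources used here. The authors' own columns of group means, fold changes and p-values were not used.

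Groups and sample numbers were taken from the sample titles. With R 4.3.3, limma 3.58.1 with a variance trend was fitted to log2(normalized count + 1) of the 32428 genes whose mean was 1 or more, with Benjamini-Hochberg adjustment over all of them and calls at 0.05. Sums and ratios were compared by exact two-sided permutation tests over samples. Alternatives were a pseudocount of 0.1, no filter, at least 10 reads in every sample, a replicate block, no variance trend, CPM scaling with and without mt- reads, edgeR 4.0.16 (TMM or upper-quartile scaling) and DESeq2 1.42.0 on recovered reads, and leaving out each sample. Samples held 14703215 to 20933919 reads on genes. With 2 samples a group, the spread of a single gene is itself poorly known. The procedure was tested on simulated data whose changes were larger than most of those reported here, so the test says nothing of small changes. For shared words, every run of 50 bases of a mitochondrial gene was looked for in all other GENCODE M21 transcripts. Unannotated sequence was not searched.

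The subunit genes and the other lists were chosen with earlier results of these data known, so no pattern here is independent support for those. Named in the text were every mt- gene, in each complex the called genes at either end of the fold changes (3 each) and the gene with the highest level per kilobase, tissue forms of subunits with their partners, X-linked members, the Atp5g genes, up to 3 called genes at either end of each further list, and 6 regulators. Genes named outside this rule are said to be so where they appear, except the cell type markers, from lists, and the nuclear copies of mitochondrial genes, found by sequence. Sco2 and Pet117 were not analysed here, and Peo1 and Fastkd4 only under their other names, Twnk and Tbrg4. The values of 1 subunit gene are not reported here.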

Additional observations from a re-analysis of the deposited data

How the results depend on the processing

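Of the 26 nuclear subunit genes called higher by limma, 17 remained with a pseudocount of 0.1 and 12 with no filter on the mean, where more genes are tested. With upper-quartile scaling edgeR called 41, and without the variance trend limma called 0, with 9 higher and 1 lower at an unadjusted p under 0.05. The other settings on all samples gave 22 to 37, apart from the replicate block. Outside the fit without the trend, the adjusted p reached 0.0906 for Cox6a2, 0.0802 for Uqcrq, 0.0817 for Uqcrc1, 0.0829 for Atp5s and 0.108 for Atp5l. The count of 1 gene lower became 2, with Sdhc beside Cox7a2l, with at least 10 reads in every sample, with both edgeR scalings and with both CPM scalings, and 0 without the trend. By complex, I to V, edgeR with TMM called 11, 2, 7, 6 and 11 higher, against 7, 2, 4, 5 and 8. The count of 3 mitochondrial genes higher became 2, without mt-Co2, with a pseudocount of 0.1, with no filter on the mean and with both CPM scalings. It became 0 without the trend (2 at an unadjusted p under 0.05), and 0 when the genes were limited to those with a mean of at least 1000, an alternative added after the data were seen. Without the trend, 3343 and 4034 of all 32428 genes were higher and lower at an unadjusted p under 0.05. The first share lay near that of the nuclear subunit genes. Over all genes, 0 were called higher and 0 lower in that fit. The cause was not tested.

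The deviations of same-numbered samples were not correlated across genes (0.0133 over 10544 genes). With 1 difference per group this cannot show whether the samples were paired, and the labels name no pairing. With a replicate block, 39 nuclear genes were higher and 1 lower, and 3122 and 3874 of all genes were higher and lower. In the same fit 5 mitochondrial genes were higher, the 3 called without the block and the abundant mt-Co1 and mt-Nd5.

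Leaving out 1 sample leaves 1 residual degree of freedom and a lone sample that is assumed to vary like the other group. Limma then called no genes. Medians of the log2 fold changes ranged from 0.22 to 0.40 for the nuclear and from 0.072 to 1.12 for the mitochondrial genes, the log2 ratio of the mitochondrial sums from -0.24 to 0.87, and that of mitochondrial to nuclear sums from -0.46 to 0.55. The sign turned for Cox6a1 (-0.13 to 0.022), Esrra (-0.068 to 0.26), Ndufb11 (-0.052 to 0.12), Ppargc1b (-0.19 to 0.089), mt-Cytb (-0.51 to 0.79), mt-Nd1 (-0.58 to 0.68), mt-Nd2 (-0.22 to 0.84), mt-Nd4 (-0.33 to 0.67) and mt-Nd6 (-0.11 to 0.38). The CPM scalings with and without mt- reads gave -0.027 and -0.025 for Ndufb11 and -0.010 and -0.0091 for mt-Nd1. On all samples, the values of the named genes kept direction and side of the threshold in 755 of the comparisons with an alternative, lost a call in 112 and gained one in 16.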
